A study of Mus musculus with 12 samples.

Results

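Neurotrophins are secreted growth factors best known for keeping neurons alive and shaping their connections, and neuronal pentraxins are secreted proteins best known for gathering glutamate receptors at synapses. The transcripts of 9 genes of these 2 systems were followed in RNA-seq libraries of mouse satellite cells, the stem cells of skeletal muscle. The genes were the ligands *Bdnf* and *Ntf3*, the receptors *Ngfr*, *Sort1*, *Ntrk2* and *Ntrk3*, the pentraxins *Nptx1* and *Nptx2* and the pentraxin receptor *Nptxr*. They were taken by name from the 55401 genes of the count table, and each passed the filter on low counts, which left 25771 genes. The names were chosen by their counts in activated *Cxcr4* KO and WT cells, which were known beforehand, so that contrast is described here without a test.

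All mice were adult, carried *Cxcr4* FL/FL, an allele in which Cre recombinase can delete the gene, and the Pax7-ZsGreen reporter, which marks satellite cells. KO mice also carried Pax7-creERT2, a Cre driven by the satellite cell gene *Pax7* that works only in the presence of tamoxifen, and WT mice lacked it. Per the labels, mice were given tamoxifen at 80 mg/kg on 5 consecutive days. The study's methods say that mice then stayed on tamoxifen chow until the end of each experiment, without naming the RNA-seq mice. The quiescent groups (4 WT and 4 KO libraries) came from freshly sorted hind limb cells, and the activated groups (2 WT and 2 KO libraries) from sorted cells kept in culture overnight. The study's methods give sample sizes as numbers of independent mice, without naming the RNA-seq libraries, and the labels do not tie libraries to mice. If libraries shared mice, p-values would measure only a technical spread.

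A mature neurotrophin binds a Trk receptor tyrosine kinase, and well-known pairs are BDNF and neurotrophin-4 (*Ntf5*) with TrkB (*Ntrk2*), and neurotrophin-3 (*Ntf3*) with TrkC (*Ntrk3*). All neurotrophins also bind p75NTR (*Ngfr*), which joins with sortilin (*Sort1*) to bind the uncleaved proneurotrophins. In muscle, neurotrophins are known as signals to motor and sensory nerves, and p75NTR and BDNF have been studied in myoblasts. NPTX1 and NPTX2 form complexes with each other and with the membrane-bound NPTXR.

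Levels are given as CPM, which are read counts divided by a TMM-scaled library size. *Cxcr4* itself, the targeted gene, was measured at 80.5 ± 25.3 CPM in quiescent WT (SD, n = 4) and 17.1 ± 3.54 CPM in quiescent KO (SD, n = 4), with no overlap. In activated cells it was at 33.3 and 14.4 CPM in WT and at 5.39 and 13.7 CPM in KO, and the highest KO library lay just under the lowest WT library. Quiescent libraries held 12775593 to 23717013 counts and activated libraries 3172164 to 5427280, so activated values rest on fewer reads. The single gene *CT010467.1* took 11.5% to 40.3% of the counts in activated libraries and under 1% in quiescent ones. *Xist*, expressed in female cells, was at 451 to 817 CPM in the 4 activated libraries and at 1.20 to 7.17 CPM in the 8 quiescent ones. The Y-linked *Ddx3y* was at 0 to 2.28 CPM in activated and at 289 to 570 CPM in quiescent libraries. Sex, depth and state therefore cannot be told apart in any comparison of activated with quiescent cells. Satellite cell markers were present in every group, and summed to 4890 to 7923 CPM in quiescent and 1816 to 2485 CPM in activated libraries.

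RefSeq sequence upstream of the start site was at hand for 4 of the 9 genes, in 11 entries: *Bdnf*, *Ntf3*, *Ngfr* and *Ntrk2*. The upstream sequences of *Ngfr* and *Ntf3* are shown because *Ngfr* fell on activation in KO, and *Ntf3* had the largest fall of the 9 on activation. They are from GRCm38.p6, read 5′ to 3′ on the minus strand and ending at the start of the first annotated exon or of the transcript, and capitals mark E-box letters (CANNTG), the motif bound by MYOD and other bHLH factors.
Ngfr, chr11:95587736-95587948: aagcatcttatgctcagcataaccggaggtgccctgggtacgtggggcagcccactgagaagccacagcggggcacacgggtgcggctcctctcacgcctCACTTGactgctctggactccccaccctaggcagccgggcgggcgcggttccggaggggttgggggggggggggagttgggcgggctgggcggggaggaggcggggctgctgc
Ntf3, second start site, chr6:126164961-126165210: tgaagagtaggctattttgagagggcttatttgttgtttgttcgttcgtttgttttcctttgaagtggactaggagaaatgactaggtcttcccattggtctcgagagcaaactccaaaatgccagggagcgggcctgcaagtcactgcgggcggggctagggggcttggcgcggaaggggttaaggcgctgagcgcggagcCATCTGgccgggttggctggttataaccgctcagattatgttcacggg
The E-box printed for *Ngfr*, CACTTG, began 150 bases before the RefSeq start, which lies 37 bases past the end of the printed stretch. That printed for *Ntf3*, CATCTG, began 48 bases before its second start, where the printed stretch ends. At its first start site *Ntf3* had 2 other E-boxes, CACGTG and CAAGTG, which began 231 and 71 bases before that start. *Ngfr* had another E-box 25 bases before the RefSeq start, CAGCTG, in the first exon of GENCODE M21. The motif was searched on both strands in the 250 bases before each start: 66.2% of 32851 mouse promoters held CANNTG, and 13% held CAGCTG. The AP-1 letters TGANTCA, found in 6.7% of promoters, and the CRE letters TGACGTCA, found in 1.5%, were absent from both printed stretches. These matches describe the letters and not a binding event.

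**Figure D1:**
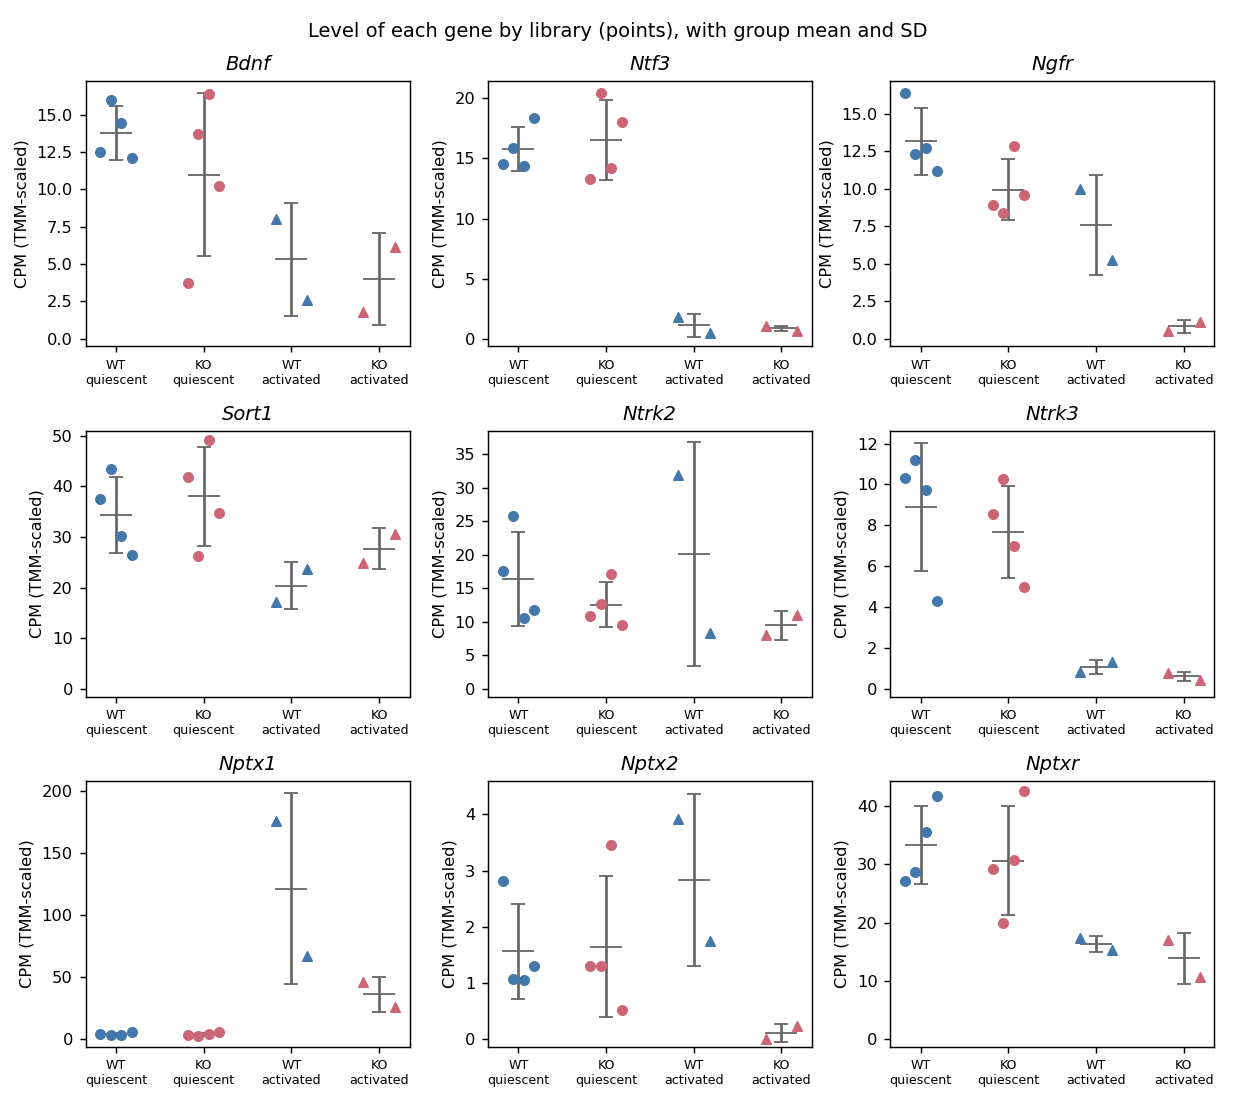
Level of each gene in CPM (y axis, separate scale in each panel) in the 12 libraries, with quiescent libraries as circles, activated libraries as triangles, WT in blue and KO in red. Grey bars give the group mean and SD (n = 4 quiescent, n = 2 activated). *Nptx1* is far higher in activated libraries, *Ntf3* and *Ntrk3* are far lower, and *Ngfr* is lowest in the 2 activated KO libraries.

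Freshly sorted cells contained transcripts of all 9 genes. Levels of different genes were compared per kilobase of merged exon. In quiescent WT, *Ntf3* was highest, at 9.21 ± 1.07 CPM per kb (SD, n = 4), and did not overlap with the next gene, *Nptxr*, at 6.44 ± 1.30. *Sort1* followed at 4.55 ± 0.996 and *Ngfr* at 3.82 ± 0.650 CPM per kb, and neither neighbouring pair from *Nptxr* to *Ngfr* differed beyond its spread. *Bdnf* was at 2.22 ± 0.286 CPM per kb, below *Ngfr* in every library and above *Ntrk2* at 0.848 ± 0.361. *Ntrk2*, *Nptx1* (0.740 ± 0.198) and *Nptx2* (0.615 ± 0.334) overlapped, and *Ntrk3* was lowest, at 0.295 ± 0.104 CPM per kb. Merged exons span 30170 bases for *Ntrk3* and 19292 for *Ntrk2*, the most of the 9 genes. In CPM, the quiescent WT mean of *Ntrk3* (8.89) was above those of *Nptx1* (3.86) and *Nptx2* (1.56). The last place of *Ntrk3* thus depends on the length used. Quiescent KO had the same 5 genes on top, from *Ntf3* at 9.63 ± 1.94 to *Bdnf* at 1.77 ± 0.882 CPM per kb (SD, n = 4), with every neighbouring pair overlapping. The order was different after activation, when *Nptx1* led in both genotypes, at 23.2 ± 14.7 CPM per kb in WT and 6.88 ± 2.74 in KO (SD, n = 2).

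The first comparison asked whether loss of *Cxcr4* changed these genes in quiescent cells. None of the 9 passed the test (adjusted p < 0.05 by edgeR's quasi-likelihood test, an absolute log2 fold change above 1 and a mean normalised count above 10), against 0.0155% of all genes, and DESeq2 called none either. No gene had an unadjusted p under 0.05 (1.74% of all genes) and none separated the groups without overlap (1.7% of all genes). *Bdnf* was at 12.5, 16.0, 14.5 and 12.1 CPM in WT and 3.70, 13.7, 16.4 and 10.2 CPM in KO. One KO library was thus low and the groups overlapped. *Ntf3* was at 14.6, 15.9, 14.3 and 18.4 CPM in WT and 13.3, 20.4, 14.2 and 18.0 CPM in KO, and the ranges overlapped. *Ngfr* was at 16.4, 12.4, 12.7 and 11.2 CPM in WT and 8.92, 8.40, 12.9 and 9.59 CPM in KO. Here 3 KO libraries lay below all WT libraries and 1 lay above 3 of them. The log2 fold change of KO against WT was -0.40 (SE 0.29) for *Ngfr*, -0.32 (SE 0.40) for *Bdnf*, -0.38 (SE 0.35) for *Ntrk2* and between -0.21 and 0.15 for the other 6 genes, with all adjusted p = 1 by edgeR.

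The second comparison asked what overnight culture did to the genes, and here most of the differences were found. In WT 4 of the 9 genes passed the test, 1 higher and 3 lower, where 26.1% of all genes passed (9.64% higher and 16.5% lower). In KO 6 passed, 1 higher and 5 lower, where 29.7% of all genes passed (11.1% higher and 18.6% lower). The median log2 fold change was -0.77 over the 9 genes and -0.92 over all genes in WT, and -1.45 against -0.96 in KO. The groups did not overlap for 7 genes in WT, 6 of them lower (56% and 38.4% of all genes), and for 6 genes in KO, 5 of them lower (54.4% and 36.1%). Activated libraries enter the contrast by which the genes were picked, so these counts describe the genes and say nothing of genes like them. The p-values of single genes below are not corrected for that choice, including those of *Ngfr* and *Nptx2* in KO. In bulk RNA, fewer cells of a type and less RNA per cell cannot be told apart.

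Of the ligands, *Ntf3*, which encodes neurotrophin-3, nearly vanished from the activated libraries. It was at 1.80 and 0.44 CPM in activated WT (11 and 1 reads) and 1.03 and 0.68 CPM in activated KO (4 and 3 reads), below all 8 quiescent libraries. The difference from quiescent cells was 11.8-fold in WT (log2 fold change -3.57, SE 0.48, adjusted p = 1.3e-05 by edgeR) and 19.2-fold in KO (log2 fold change -4.27, SE 0.51, adjusted p = 3.0e-06 by edgeR). Counting error alone put the activated level at 0.0906 of the quiescent level in WT (95% exact interval 0.0467 to 0.159) and at 0.0523 in KO (0.0210 to 0.108).
*Bdnf*, which encodes brain-derived neurotrophic factor, was at 8.0 and 2.63 CPM in activated WT and 1.80 and 6.16 CPM in activated KO. Both activated WT libraries were below all quiescent WT libraries, while in KO the groups overlapped. Neither difference passed, with a log2 fold change of -1.27 (SE 0.56, adjusted p = 0.091 by edgeR) in WT and -1.45 (SE 0.58, adjusted p = 0.059 by edgeR) in KO. Both lay near the threshold: *Bdnf* passed as lower in 4 of 21 other settings and left-out libraries in WT, and in 6 of 21 in KO.

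Of the receptors, *Ntrk3*, the receptor of neurotrophin-3, fell together with its ligand in both genotypes. It was at 10.3, 11.2, 9.74 and 4.29 CPM in quiescent WT and 8.56, 10.2, 6.98 and 4.96 CPM in quiescent KO. In activated cells it was at 0.82 and 1.31 CPM in WT (5 and 3 reads) and 0.77 and 0.46 CPM in KO (3 and 2 reads). The groups did not overlap, and the fall was 8.90-fold in WT (log2 fold change -3.15, SE 0.62, adjusted p = 6.7e-04 by edgeR) and 12.5-fold in KO (log2 fold change -3.64, SE 0.66, adjusted p = 2.6e-04 by edgeR).
*Ngfr*, the p75 receptor, passed the test in KO and not in WT. It was at 9.97 and 5.25 CPM in activated WT (61 and 12 reads) and at 0.51 and 1.14 CPM in activated KO (2 and 5 reads). The KO fall was 11.7-fold (log2 fold change -3.55, SE 0.53, adjusted p = 3.4e-05 by edgeR), and the WT value was -0.74 (SE 0.39, adjusted p = 0.15 by edgeR) although both activated WT libraries lay below all quiescent ones. Whether these 2 changes differ is the interaction given further on, which passed the test for no gene.
*Ntrk2*, the receptor of BDNF, was at 17.5, 25.8, 10.5 and 11.7 CPM in quiescent WT, and at 10.8, 12.7, 17.1 and 9.54 CPM in quiescent KO. Activated cells had 31.9 and 8.32 CPM in WT and 7.96 and 11.0 CPM in KO, so the WT pair held both the highest value of all WT libraries and the lowest. No difference passed, with a log2 fold change of 0.35 (SE 0.44, adjusted p = 0.54 by edgeR) in WT and -0.40 (SE 0.47, adjusted p = 0.49 by edgeR) in KO, and the WT value was -0.90 without activated WT replicate 1. *Sort1*, the partner of p75NTR, was at 26.5 to 43.4 CPM in quiescent WT and 17.2 and 23.6 CPM in activated WT, with a log2 fold change of -0.77 (SE 0.31, adjusted p = 0.069 by edgeR) and no overlap. In KO it was at 26.2 to 49.3 CPM in quiescent and 24.9 and 30.6 CPM in activated cells, which overlapped (log2 fold change -0.45, SE 0.30, adjusted p = 0.23 by edgeR). *Ntrk2* and *Ntrk3* have full-length and truncated kinase-less isoforms, and gene counts do not separate them.

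Of the pentraxins, *Nptx1* rose more than any other of the 9 genes in both genotypes. It was at 3.76, 3.26, 3.07 and 5.35 CPM in quiescent WT and 2.87, 2.39, 3.95 and 5.34 CPM in quiescent KO. In activated cells it was at 175 and 67.0 CPM in WT (1074 and 153 reads) and 46.0 and 25.8 CPM in KO (179 and 113 reads). All 4 activated libraries lay above all 8 quiescent ones, and the rise was 31.5-fold in WT (log2 fold change 4.98, SE 0.39, adjusted p = 4.0e-08 by edgeR) and 9.77-fold in KO (log2 fold change 3.29, SE 0.38, adjusted p = 1.9e-06 by edgeR).
Its membrane partner *Nptxr* moved the other way. It was at 27.2 to 41.8 CPM in quiescent WT and 17.3 and 15.3 CPM in activated WT, a fall of 2.03-fold (log2 fold change -1.02, SE 0.33, adjusted p = 0.026 by edgeR). In KO it went from 19.9 to 42.6 CPM in quiescent to 17.0 and 10.7 CPM in activated cells, a fall of 2.22-fold (log2 fold change -1.15, SE 0.34, adjusted p = 0.013 by edgeR). Its log2 fold change was near the threshold of 1 and close to the median of all genes in both genotypes, and its call was lost in 12 of 21 other settings and left-out libraries in WT and in 3 of 21 in KO.
The ratio within a library shows the shift without scaling: quiescent libraries had 0.0863 to 0.138 *Nptx1* reads per *Nptxr* read, activated WT 10.1 and 4.37, and activated KO 2.71 and 2.40. *Nptx2*, an immediate early pentraxin in neurons, was low throughout, at 2.82, 1.06, 1.05 and 1.30 CPM in quiescent WT and 1.30, 1.30, 3.45 and 0.52 CPM in quiescent KO. Activated WT had 3.92 and 1.75 CPM (24 and 4 reads), which overlapped with quiescent WT (adjusted p = 0.38 by edgeR). Activated KO had 0 reads in 1 library, which allows up to 0.771 CPM, and 1 read (0.23 CPM) in the other. *Nptx2* passed the test in KO as lower (adjusted p = 0.037 by edgeR), and this call was lost in 6 of 21 other settings and left-out libraries. Counting error alone put the activated KO level at 0.0692 of the quiescent one (95% exact interval 0.00174 to 0.392).

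**Figure D2:**
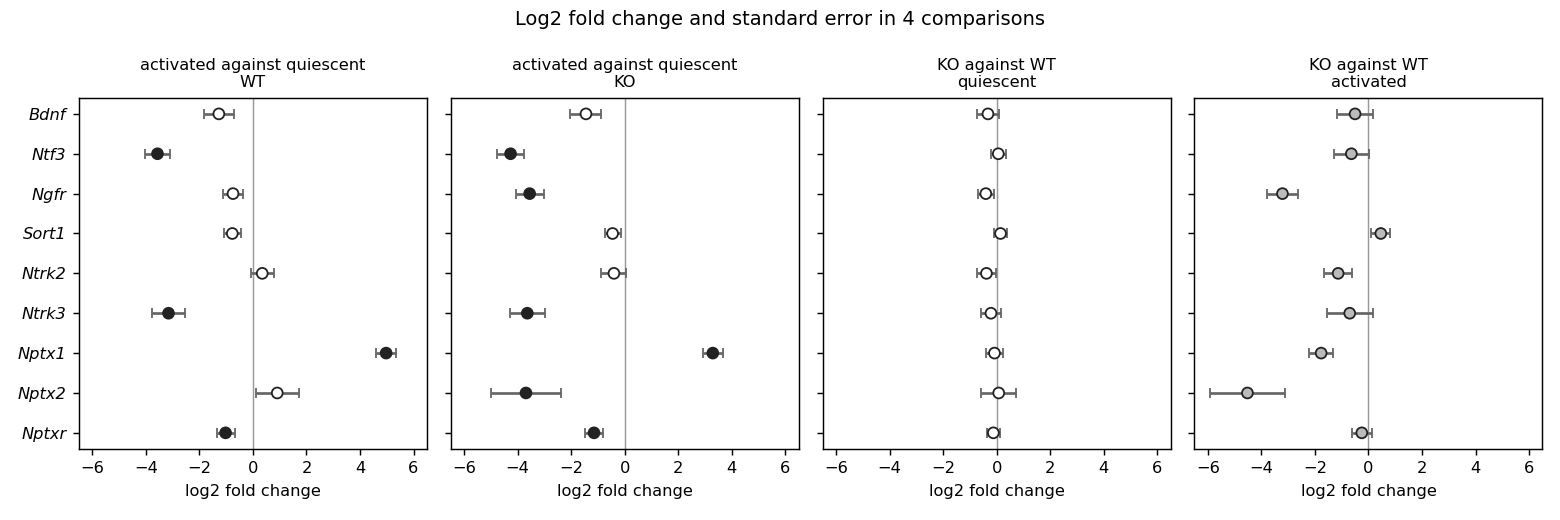
Log2 fold change (x axis) and SE (bars) of each gene in 4 comparisons, from 1 edgeR fit of 12 libraries. Filled points passed the test and open points did not, and grey points mark the contrast by which the genes were picked, shown without a test. *Nptx1* lies far to the right and *Ntf3* and *Ntrk3* far to the left in both activated against quiescent panels, and the quiescent KO against WT panel holds no value beyond -0.40.

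The third comparison was KO against WT in activated cells. Its values chose the 9 genes, so they are a description, and nothing about the genes is read from the counts set beside those of all genes here. The criteria used above would count 1 gene, *Ngfr*, as lower in KO (0.0504% of all genes, and 0.0194% as lower). Over the other settings this count was 0 to 2. *Ngfr* was no longer counted with a mean count of at least 10, with edgeR on the compared groups, with the replicate block or without any single quiescent library. *Nptx1* was counted as well with no filter and with DESeq2 on all 12 libraries. Over all 21 other settings and left-out libraries, *Ngfr* lost its call in 15 and *Nptx1* was called in 4. The study's own list of genes changed in activated cells, made with DESeq2, held *Nptx1* and not *Ngfr*. The groups did not overlap for 5 genes (24.7% of all genes), and 4 of these were lower in KO (9.5%). The fitted value was below 0 for 8 of 9 genes (37.6% of all genes), with a median of -0.70 against 0 for all genes. *Ngfr* had 7 reads in the 2 KO libraries and 73 in the 2 WT libraries, a ratio of 0.0974 after scaling (95% exact interval 0.0378 to 0.211, counting error only), and its log2 fold change was -3.21 (SE 0.57). *Nptx1* had 292 reads against 1227, a ratio of 0.242 (0.212 to 0.275), and a log2 fold change of -1.77 (SE 0.45). Both KO libraries were below both WT libraries for either gene, although the WT libraries themselves lay apart in *Nptx1*, at 175 and 67.0 CPM. *Nptx2* had 1 read against 28, a ratio of 0.0363 (0.000887 to 0.219).
*Ntrk3* was also lower in KO without overlap, but on 5 and 8 reads, with a wide interval of its ratio, 0.163 to 2.2. These intervals describe counting error in values that chose the genes, and they test nothing. *Sort1* went the other way, with 24.9 and 30.6 CPM in KO above 17.2 and 23.6 CPM in WT and a log2 fold change of 0.46 (SE 0.36). For *Bdnf* (-0.50, SE 0.67), *Ntf3* (-0.64, SE 0.66), *Ntrk2* (-1.13, SE 0.53) and *Nptxr* (-0.25, SE 0.38) the libraries overlapped. Without activated WT replicate 1 the log2 fold change became 0.51 for *Bdnf*, 0.85 for *Ntf3* and 0.09 for *Ntrk2*, so their direction rested on that library, and *Bdnf* was also above 0, at 0.10, without activated KO replicate 1. The values of *Ngfr* and *Nptx1* stayed below 0 with any library left out, from -3.97 to -2.73 and from -2.36 to -0.99.

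**Figure D3:**
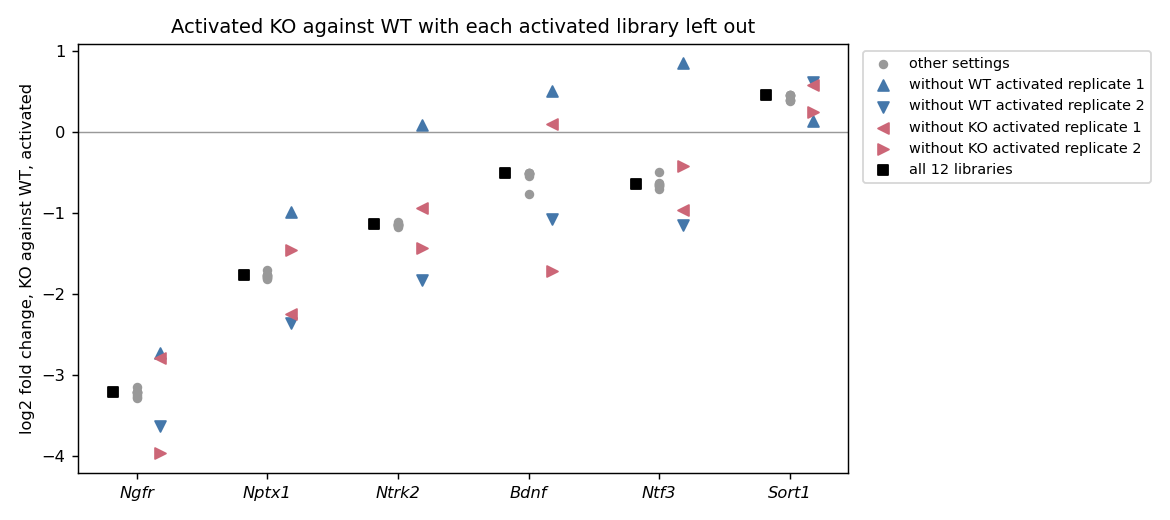
Log2 fold change of activated KO against WT (y axis) for 6 genes with all 12 libraries (squares), under the other settings (grey circles) and without each activated library in turn (triangles, blue for WT and red for KO). *Nptx2* is not drawn because 1 KO library had 0 reads. *Ngfr* and *Nptx1* stay below 0 throughout, while *Bdnf*, *Ntf3* and *Ntrk2* cross 0 without WT replicate 1, and *Bdnf* also without KO replicate 1.

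The difference of the KO effect between states (the interaction) contains the activated KO and WT values that chose the genes, so its counts too are only a description. It passed the edgeR test for 0 of the 9 genes and 0% of all genes, and 3 of the 9 genes had an unadjusted p under 0.05 (6.59% of all genes). DESeq2 on all 12 libraries called 1 of the 9 (0.101% of all genes in that fit). The log2 difference was -2.81 (SE 0.65) for *Ngfr*, -1.69 (SE 0.55) for *Nptx1* and -4.60 (SE 1.55) for *Nptx2*, and it was between -0.75 and 0.32 for the other 6 genes.

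*Ntf5*, which encodes neurotrophin-4, was not among the 9 genes but shares the receptor TrkB with BDNF. It was at 0.722 to 1.92 CPM in quiescent WT, 0.678 to 3.14 CPM in quiescent KO, 5.55 and 6.13 CPM in activated WT and 2.31 and 5.02 CPM in activated KO. It rose in WT (log2 fold change 2.25, SE 0.66, adjusted p = 0.015 by edgeR), and in KO its value was 1.27 (SE 0.67, adjusted p = 0.15 by edgeR).

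Another 55 genes of these pathways were listed, and 52 could be tested. None passed the edgeR test in KO against WT in either state or in the interaction (0.0155%, 0.0504% and 0% of all genes). An unadjusted p under 0.05 by edgeR was found for 1 in quiescent cells (1.74% of all genes) and 4 in the interaction (6.59%). It was found for 6 in activated cells, where the share of all genes is not reported here, so nothing is read from that count. DESeq2 on all 12 libraries called 1 in activated cells (0.322% of all genes in that fit). On activation 20 passed in WT (5 higher, 15 lower) and 18 in KO (2 higher, 16 lower), where the shares of all genes were 26.1% and 29.7%. The WT count was 12 without activated WT replicate 1 and 11 without replicate 2, and the KO count was 11 without activated KO replicate 2. Their median log2 fold change was -0.43 in WT and -0.37 in KO. The VPS10 receptors related to *Sort1* mostly fell. *Sorcs2* had a log2 fold change of -2.72 (SE 0.42) in WT and -3.40 (SE 0.45) in KO, and *Sorl1* of -2.28 (SE 0.32) in WT and -1.88 (SE 0.30) in KO. *Sorcs3* had no read in any activated library and *Sorcs1* none in activated WT, against 150 and 194 reads in quiescent WT. *Lingo1*, a p75NTR co-receptor, rose by 2.02 (SE 0.59) in WT and 1.92 (SE 0.58) in KO on the log2 scale, and *Bex1*, which binds p75NTR, by 1.14 (SE 0.35) and 2.42 (SE 0.34). Among the partners of pentraxins, *Gria1*, an AMPA receptor subunit, had 1108 and 531 reads in quiescent WT and KO and 0 in all activated libraries. *Gria2* and *Gria4*, of the same receptor, had 120 and 91 reads in quiescent KO and 0 in activated KO. *Frs3*, an adaptor of Trk receptors, rose in WT (log2 fold change 1.47, SE 0.50). *Plat*, the tissue plasminogen activator that cleaves plasminogen on the way to BDNF maturation, had a log2 fold change of -4.07 (SE 0.62) in WT and -4.80 (SE 0.68) in KO. Each change named here had an adjusted p under 0.05 by edgeR.

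Transcripts of other cell types were present, and several of the 9 genes are known in them. Schwann cells express *Ngfr*, and the summed CPM of 10 Schwann cell markers was 380 to 537 in quiescent WT, 269 to 644 in quiescent KO, 61.7 to 97.5 in activated WT and 68.6 to 210 in activated KO. The defining marker *Foxd3* was at 0 in all groups, whereas *Sox10* was at 11.2 ± 1.94 CPM in quiescent WT (SD, n = 4), at 0 to 6.70 CPM in activated WT and at 0.514 to 2.97 CPM in activated KO. The summed ranges of activated KO and activated WT overlapped, and the part of Schwann cells in the *Ngfr* values was not tested. Neuron markers summed to 16.1 to 39.3 CPM in quiescent and 6.42 to 18.5 CPM in activated libraries, with *Chat* at 0 in both activated groups. Fibroadipogenic progenitor markers summed to 503 to 3458 CPM in quiescent and 322 to 791 CPM in activated libraries, and markers of mature muscle fibre to 282 to 945 and 6747 to 16802 CPM. Endothelial markers summed to 394 to 1907 CPM in quiescent and 137 to 828 CPM in activated libraries, pericyte and smooth muscle markers to 1570 to 2917 and 229 to 453 CPM, and hematopoietic markers to 96.4 to 445 and 43.6 to 76.9 CPM. The part of these cells in the activation differences of *Ntf3*, *Ntrk3* and *Bdnf* was not tested.

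The genes with a course most like *Ngfr* over the 12 libraries were *Foxm1*, *Rab27b* and *Mkx*, with a root mean square difference in centred log2 CPM of 0.37, 0.38 and 0.41. For *Nptx1* they were *Tafa5* (0.51), *Snora17* (0.55) and *Gsr* (0.56). Few reads were assigned to genes that overlap the 9. *Bdnf* shares 896 exon bases with the opposite-strand *Gm45346* (1 read in all 12 libraries), and *Sort1* 338 with the opposite-strand *Gm12523* (9 reads). *Nptxr* shares 890 with the same-strand *Npcd* (0 reads). How reads within the shared bases were counted is not given in the sources used here. On GRCm38 (GENCODE M21) *Ngfr* lies at chr11:95568818-95587735 and *Nptx1* at chr11:119538719-119547753, both on the minus strand, *Ntf3* at chr6:126101412-126166910 and *Ntrk3* at chr7:78175959-78738012, also on the minus strand.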

How the data were processed

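Poly(A) RNA from Pax7-ZsGreen+ cells was sequenced by the authors, trimmed with Trim Galore 0.6.0, mapped to GRCm38.p6 with STAR 2.7.2a and counted on GENCODE M25 genes with Rsubread. The deposited counts are whole reads per gene without normalization, for 12 libraries. The treatment of strand and of reads that map to several places is not given in the sources used here. The authors also deposited FPKM, 1 value per group without replicates, which were used only to check the calculation. They lay within 1 SD of the CPM per kb computed here for 36 of 36 gene and group pairs. Since they come from the same libraries, they cannot test the levels themselves.

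Genes were filtered with filterByExpr, scaled by TMM and fitted with edgeR 4.0.16 (R 4.3.3) as 4 groups in 1 model. Each contrast had a quasi-likelihood F test, p-values were adjusted over all 25771 genes by Benjamini and Hochberg's method, and a gene was called at an adjusted p under 0.05, an absolute log2 fold change above 1 and a mean normalized count above 10. CPM per kb used the merged exon length of GENCODE M21 on GRCm38. Likeness used log2 CPM with a prior count of 2. Ratios of reads carry exact 95% intervals and a count of 0 an upper limit of 3 reads, which cover counting error only, since PCR copies are not independent molecules. The scripts were tested on simulated data. Alternatives were DESeq2 1.42.0 (all 12 libraries, or the compared groups alone), its size factors within edgeR, no filter, a mean count of at least 10, the adjusted p alone, a robust fit, an edgeR fit of the compared groups alone, a block for the replicate number, no *CT010467.1* and leaving out each library.

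The 9 genes and all gene lists were chosen with earlier results of these data known. Of the other pathway genes, the text names ligands and receptors and, of the 4 called genes with the largest rise and the 4 with the largest fall per comparison, those with a role given. Some genes of the lists are not reported here.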

Additional observations from a re-analysis of the deposited data

Results flagged for a closer look

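*Nptx2* in quiescent WT replicate 1 was at 2.82 CPM, against 1.05 to 1.30 CPM in the other 3 libraries of its group, and stood apart by Dixon's test (a gap of 0.860 of the group's range, above the 95% critical value for 4 libraries). This was 1 of 18 groups of 4 libraries tested, and chance gives about 1 in 20.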

How the results depend on the processing

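Activated KO and WT values chose the 9 genes, so the counts and values of that contrast and of the interaction are given only as a description. The number of the 9 genes called in activated KO against WT, 1 in the report, was 2 with no filter, 2 with DESeq2 on all 12 libraries, 0 with a mean count of at least 10, 0 with edgeR on the compared groups, 0 with the replicate block, and 0 to 2 with a library left out (2 without activated WT replicate 2, 0 without each of the other 11). In the interaction, 0 in the report, it was 1 with no filter, 1 with DESeq2 on all 12 libraries and 0 to 1 with a library left out. The other pathway genes called in activated KO against WT, 0 in the report, were 2 with no filter, 1 with either DESeq2 fit and 0 to 1 with a library left out, and in the interaction 1 with no filter. On activation they were 11 to 21 in WT and 11 to 18 in KO with a library left out. Directions turned for these log2 fold changes, given as the lowest and highest with a library left out. In quiescent KO against WT they were *Ntf3* -0.050 to 0.15, *Sort1* -0.0039 to 0.30, *Nptx1* -0.32 to 0.12, *Nptx2* -0.58 to 0.53 (and -0.13 with the replicate block) and *Nptxr* -0.32 to 0.040. In activated KO against WT they were *Bdnf* -1.71 to 0.51, *Ntf3* -1.15 to 0.85 and *Ntrk2* -1.83 to 0.088. In activated against quiescent WT it was *Ntrk2* -0.90 to 1.02, and in the interaction *Bdnf* -1.40 to 0.82, *Ntf3* -1.21 to 0.79, *Sort1* -0.0095 to 0.47, *Ntrk2* -1.45 to 0.47 and *Nptxr* -0.51 to 0.12. The cause was not tested. Whether the replicate numbers pair libraries was not settled. Same-numbered quiescent KO and WT libraries deviated with a correlation of -0.05 to 0.30. For replicates 2 and 4 it was above the highest with another number (0.12 against 0.053, and 0.30 against -0.035). For replicates 1 and 3 it was below (0.050 against 0.075, and -0.050 against 0.070). Activated ones had -0.024, which cannot show pairing, since with 2 libraries per group same-numbered and other-numbered values mirror each other. With the block, 4 of the 9 genes were called in activated against quiescent KO, against 6 without it.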
